A study of Mus musculus with 76 samples.

Results

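The 10 genes described here, Nkx6-1, Nkx6-2, Nkx2-2, Irx3, Irx5, Pax6, Pax7, Dbx1, Dbx2 and Sox3, encode transcription factors that divide the embryonic neural tube into domains between its ventral and dorsal sides. They were chosen by name, with no measured value in the rule, but with earlier results of these data known. They are 10 of the 38924 genes in the deposited count table, and each symbol matched 1 row. All 10 are described in every one of the 16 groups of the study.

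RNA of whole cultures was sequenced from neural cells grown from mouse embryonic stem cells. The stem cells came from C57BL/6J (B6), the standard inbred laboratory strain, or from WSB/EiJ (WSB), a wild-derived inbred strain. At the neural progenitor (NPC) stage and at the later maturation stage, cultures of each strain were left as controls or given ID-8, a compound that inhibits the kinase DYRK1A. At the axon stage, control and ID-8 cultures of each strain were either left uncut or had their axons severed (cut). Each of the 4 NPC groups held 6 libraries and each of the 4 maturation groups held 4. Of the 8 axon groups, 6 held 4 libraries, and uncut WSB cultures with ID-8 and cut B6 cultures with ID-8 held 3. The labels give neither dose nor duration of ID-8, and they do not say whether replicate libraries came from separate stem cell lines or animals, so p-values measure the spread between these libraries, which may be technical.

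The 70 libraries held 20.37 to 131.49 expected counts in units of 1e6, and levels below are counts per 1e6 of the library's total (CPM). All 10 of a list of SoxB and other progenitor genes had a mean of at least 1 CPM in every NPC group, and all 8 of a list of neuron markers did so in every group of every stage. NPC cultures were thus not free of neuron RNA: the summed level of the neuron list in B6 control NPC was 1146 to 3045 CPM. Pluripotent stem cell markers summed to 438.7 to 1238 CPM in B6 control NPC and to 38.51 to 72.36 CPM in WSB control NPC, and at both later stages they summed to at most 44.02 CPM. A few libraries stood apart in these factors, namely B6 control replicate 1, B6 ID-8 replicate 6 and WSB ID-8 replicate 4 of the NPC stage, the 4 axon libraries of WSB culture set 1 (a set shares 1 culture name in the deposited table), and WSB ID-8 cut replicate 3 of the axon stage. They were picked after seeing the data, and several results, but not all, are given with and without them.

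In the embryo, Sonic hedgehog from the floor plate and bone morphogenetic proteins from the roof plate set up opposing gradients along the neural tube. Homeodomain factors read these gradients: some are induced by hedgehog signalling, others are repressed by it, and pairs from the opposite classes repress each other, which makes sharp borders between progenitor domains. Each domain then makes its own class of spinal neuron. Nkx6-1, Nkx6-2 and Nkx2-2 belong to the hedgehog-induced ventral class. Pax6, Irx3, Irx5, Dbx1, Dbx2 and Pax7 lie in the intermediate and dorsal tube and are lost as hedgehog signalling rises. Sox3 is a SoxB1 factor of dividing progenitors along the whole axis and keeps them undifferentiated.

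The promoters of 3 factors are shown, those with an upstream window that held few or no bases annotated as exon. Across the stages described below, Nkx6-2 was highest at the later stages, Dbx1 was all but absent from them, and Pax6 lay between. Sequences were read from RefSeq for GRCm38.p6, in which 8 of the 10 genes matched (all but Irx5 and Sox3). Each window covers the bases upstream of the start, 5′ to 3′ on the gene's strand, with bases annotated as exon left out. Capitals mark TAAT or its reverse ATTA, the core bound by homeodomain proteins, and CCAAT or its reverse ATTGG, the core bound by the factor NF-Y.
Nkx6-2, chr7:139582798-139583047, minus strand: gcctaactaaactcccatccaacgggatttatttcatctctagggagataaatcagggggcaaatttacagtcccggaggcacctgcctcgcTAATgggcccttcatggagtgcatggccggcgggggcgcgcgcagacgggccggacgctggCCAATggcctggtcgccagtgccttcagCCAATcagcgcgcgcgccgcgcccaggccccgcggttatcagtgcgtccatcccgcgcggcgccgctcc
Pax6, chr2:105668646-105668895, plus strand: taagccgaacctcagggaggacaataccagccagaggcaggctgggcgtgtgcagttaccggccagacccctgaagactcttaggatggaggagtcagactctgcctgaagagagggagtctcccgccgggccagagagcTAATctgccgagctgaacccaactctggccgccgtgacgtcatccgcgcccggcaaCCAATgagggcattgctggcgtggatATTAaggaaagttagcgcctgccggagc
Dbx1, chr7:49636850-49637085, minus strand: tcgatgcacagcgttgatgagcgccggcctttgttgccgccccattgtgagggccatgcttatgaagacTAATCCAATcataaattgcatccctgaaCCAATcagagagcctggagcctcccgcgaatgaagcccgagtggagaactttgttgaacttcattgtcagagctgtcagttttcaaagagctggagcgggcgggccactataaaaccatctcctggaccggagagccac
The Nkx6-2 window of 250 bases held 1 TAAT core and 2 CCAAT cores. The Pax6 window of 250 bases held 2 TAAT cores and 1 CCAAT core. The Dbx1 window of 236 bases held 1 TAAT core, directly followed by the first of 2 CCAAT cores, and 1 TATAAA, which is not in capitals. Both strands were searched. Over all 32851 promoter windows of 250 bases in the table, 54.9% held TAAT, 33.8% held CCAAT and 12.4% held TATAAA on either strand, so these matches are common letters and describe no site in use. The windows of Nkx6-1, Irx3, Pax7, Dbx2 and a second Pax6 start lay wholly in annotated exons and are not shown, nor is the Nkx2-2 window, 53 bases of which were exonic.

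Every gene is on the GRCm38 build. The ventral genes lie at chr5:101658139-101664996 (Nkx6-1), chr7:139579376-139582797 (Nkx6-2) and chr2:147177546-147194243 (Nkx2-2), all on the minus strand. Irx3 (chr8:91798525-91802067, minus strand) and Irx5 (chr8:92357625-92376286, plus strand) are neighbours in 1 Iroquois cluster. Pax6 lies at chr2:105668900-105697364 on the plus strand and Pax7 at chr4:139737062-139833528 on the minus strand. Dbx1 (chr7:49631499-49636849), Dbx2 (chr15:95623563-95655960) and Sox3 (chrX:60891366-60893430) are on the minus strand. Exons of Nkx6-2, Nkx2-2 and Irx3 overlap on the other strand with exons of Inpp5a, Nkx2-2os and Irx3os, over 10.7%, 8.04% and 2.72% of the stretches of 50 bases in each gene. The kit kept strand, but whether counting used it is not given in the sources used here, so reads of these overlapping genes may be mixed. Irx3 and Irx5 also share a small part of their sequence with other Iroquois genes (1.45% and 0.552% of their stretches).

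Per kilobase of annotated exon, Dbx1 was the most abundant of the 10 in control NPC of both strains, Sox3 in ID-8 NPC, and Nkx6-2 at both later stages. The divisor was the joined length of all annotated exons of a gene, 11694 bases for Pax6 and at most 5860 for the others. Ranks thus depend on it, and without it Pax6 had a mean of 53.4 CPM in B6 and 85.8 CPM in WSB control NPC. In WSB ID-8 NPC Sox3 and Dbx1 were close, at 47.4 and 46.7 CPM per kilobase. In B6 control NPC, levels per kilobase of exon were 35.2 CPM for Dbx1, 28.7 for Sox3, 24.6 for Irx3, 12.1 for Irx5 and 10.3 for Nkx6-1. In the same group they were 5.88 CPM per kilobase for Pax7, 4.57 for Pax6, 1.56 for Nkx6-2, 0.831 for Dbx2 and 0.559 for Nkx2-2. In uncut WSB control cultures of the axon stage the order was led by Nkx6-2 (31.6 CPM per kilobase), Nkx6-1 (12.9), Irx3 (8.43) and Dbx2 (7.96). Nkx6-2 ranked first per kilobase in all 4 maturation groups and all 8 axon groups.

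**Figure D1:**
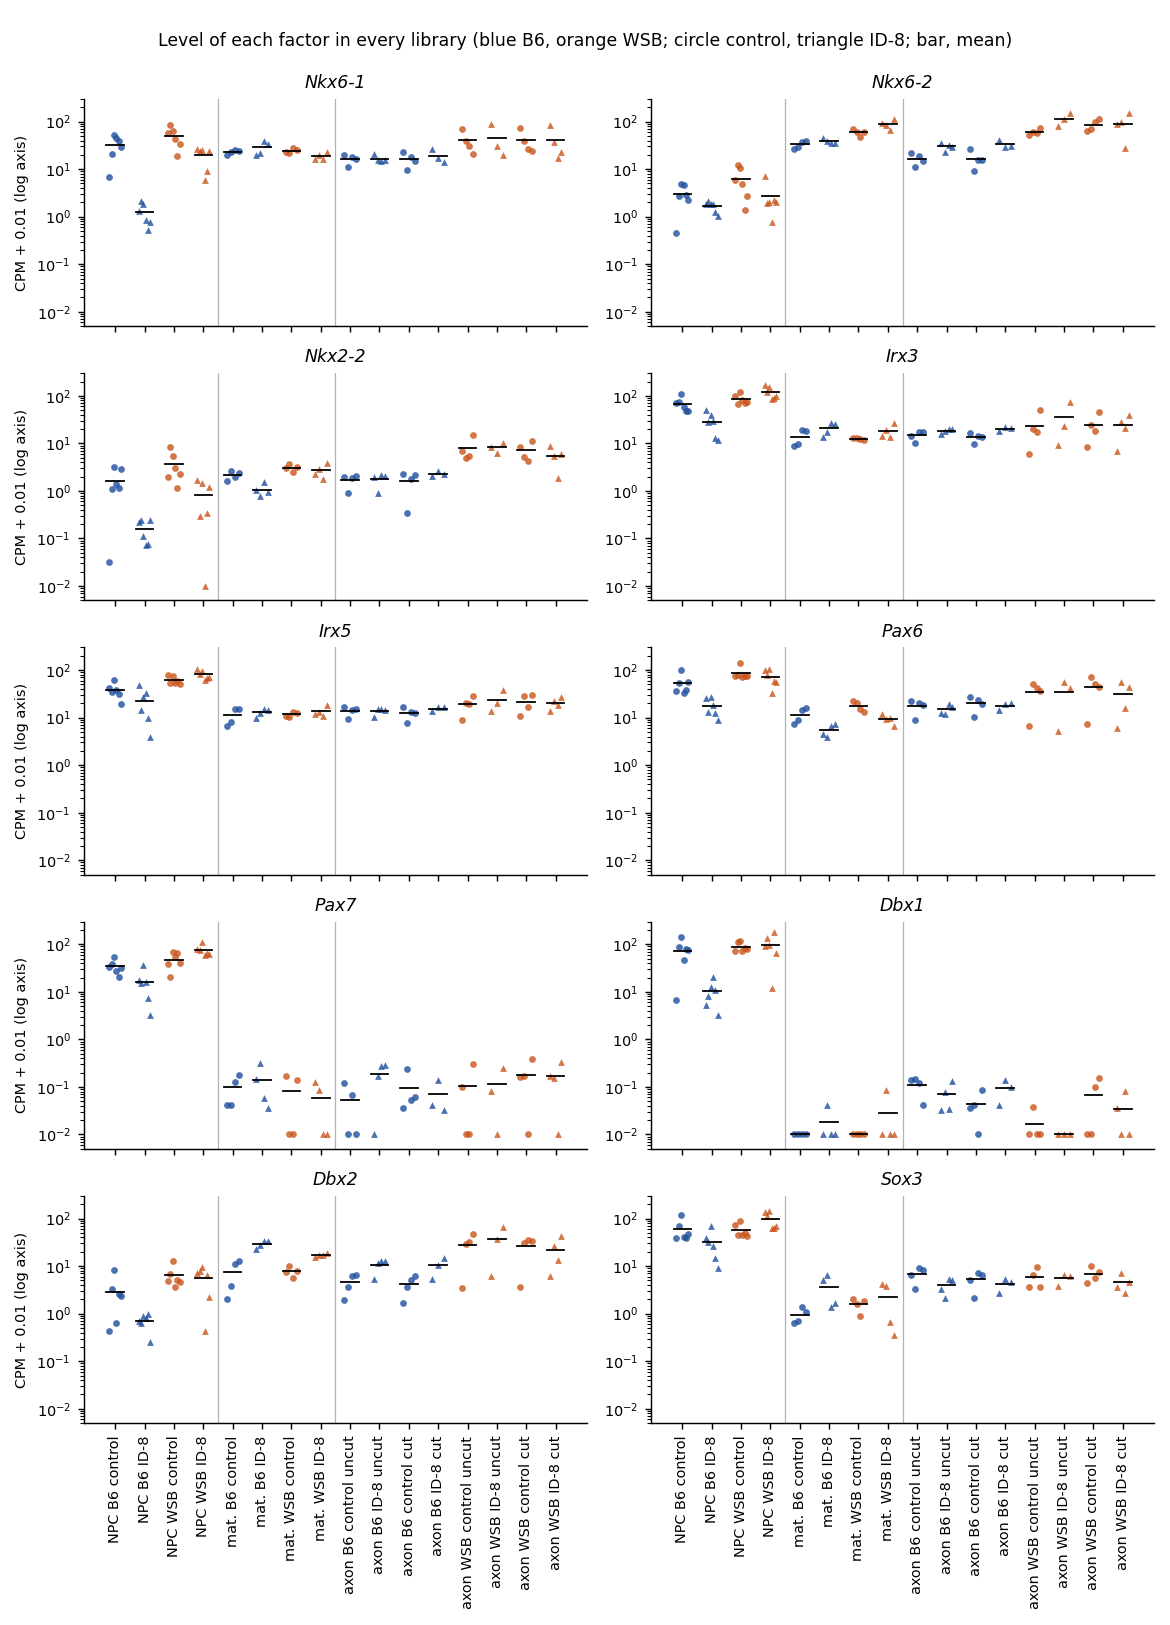
Level of each factor in all 70 libraries by group, in CPM with 0.01 added, on a log axis, with a bar at each group mean. Pax7 and Dbx1 are high at the NPC stage and near or at 0 later, Nkx6-2 rises, and the mean of Nkx6-1 is 16.4 to 50.1 CPM in every group but B6 ID-8 NPC (1.24 CPM).

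The ventral factors did not move together between stages. Nkx6-2, whose product works with Nkx6-1 in the ventral tube and later in the oligodendrocyte lineage, rose at both later stages. In control NPC its level was 0.450 to 4.93 CPM in B6 (median 2.77) and 1.35 to 11.9 CPM in WSB (median 5.37). In control maturation cultures it was 26.5, 28.9, 38.1 and 38.5 CPM in B6 and 68.5, 59.8, 48.5 and 61.4 CPM in WSB. No maturation library fell into the NPC range in either strain. The log2 difference of maturation from NPC was 3.46 ± 0.44 (SE; adjusted p = 6.49e-10) in B6 and 3.16 ± 0.43 (adjusted p = 4.45e-09) in WSB, with edgeR's quasi-likelihood test and Benjamini-Hochberg adjustment over all genes, as for every adjusted p here. A gene is called below at an adjusted p under 0.05.

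At the axon stage uncut control cultures held 22.0, 11.2, 18.8 and 14.6 CPM of Nkx6-2 in B6, and 52.1, 60.9, 56.6 and 71.8 CPM in WSB. Compared with NPC libraries of the same library block, the log2 difference was 2.40 ± 0.43 (adjusted p = 3.1e-05) in B6 and 4.32 ± 0.49 (adjusted p = 2.7e-08) in WSB. Over all 16 groups the mean level of Nkx6-2 ran from 1.65 CPM in B6 ID-8 NPC to 114.4 CPM in uncut WSB ID-8 axon cultures. The 4 NPC groups were at the bottom of that order and their ranges overlapped one another.

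Nkx6-1, which specifies the ventral progenitors that give rise to motor neurons and neighbouring interneurons, was detected in controls of every stage. Control NPC held 6.79 to 51.5 CPM in B6 (median 34.8) and 18.6 to 84.1 CPM in WSB (median 50.9), and control maturation cultures held 20.0 to 25.0 CPM in B6 and 22.2 to 27.7 CPM in WSB. Maturation differed from NPC by -0.48 ± 0.44 in log2 in B6 (adjusted p = 0.338) and by -1.12 ± 0.45 in WSB (adjusted p = 0.026). The WSB call did not hold without maturation WSB control replicate 1 (-1.09, adjusted p = 0.0548) or replicate 2 (-1.05, adjusted p = 0.065). Adding library blocks as covariate to the fit of all 70 libraries turned the sign of the WSB difference (0.45 ± 0.54, adjusted p = 0.485). In that fit the block of the maturation libraries is tied to other stages only through WSB culture set 4, which carries another batch number in the deposited table, so the block may merge separate batches. Uncut axon cultures of B6 were lower than NPC by 1.18 on the log2 scale (SE 0.46, adjusted p = 0.031), which missed the threshold without NPC B6 control replicate 4 (adjusted p = 0.075), NPC B6 control replicate 5 (0.0501) or axon B6 control uncut replicate 2 (0.0884).

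Nkx2-2 marks the most ventral progenitors next to the floor plate and was the least abundant ventral factor. Its control means were 1.61 CPM in B6 NPC, 3.74 CPM in WSB NPC, 2.14 CPM in B6 maturation cultures and 3.08 CPM in WSB maturation cultures. None of its stage comparisons in controls passed the threshold. The largest was axon against NPC in WSB, at 1.5 ± 0.73 (adjusted p = 0.0895).

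The dorsal and intermediate factors Pax7 and Dbx1 were close to absent after the NPC stage. Pax7, a paired-box factor of the dorsal tube, had control means of 34.4 ± 11.6 CPM (SD, n = 6) in B6 NPC and 47.8 ± 18.7 CPM in WSB NPC. Over the pooled libraries it had 12328 counts in B6 control NPC, 11 counts in B6 control maturation cultures and 9 counts in uncut B6 control axon cultures, where 2 of 4 libraries held none. In WSB it had 8 counts in control maturation cultures and 11 in uncut control axon cultures. In no group of the later stages did the mean exceed 0.176 CPM.

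Dbx1, which marks progenitors near the middle of the axis that make commissural interneurons, averaged 73.6 ± 44.3 CPM (SD, n = 6) in B6 control NPC and 89.6 ± 20.8 CPM in WSB control NPC. No count of Dbx1 was found in either control group of the maturation stage. With a floor of 3 counts over the group, its level was at least 3100-fold lower than in NPC in B6 (0 counts of a total of 126.2 in units of 1e6) and at least 3390-fold lower in WSB (0 of 113.4). Such floors cover counting error only, because PCR copies of 1 molecule cannot be recognised in these libraries. Uncut WSB ID-8 axon cultures also held 0 counts, at least 2630-fold below control NPC of that strain, and uncut B6 control axon cultures held 17 counts.

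Irx3, an Iroquois factor that sets the dorsal edge of the motor neuron domain, and its cluster neighbour Irx5 fell at both later stages. Control NPC held 46.9 to 107.3 CPM of Irx3 in B6 and 67.8 to 122.0 CPM in WSB, against 8.95, 9.49, 19.2 and 17.9 CPM in B6 and 12.7, 12.8, 12.6 and 11.7 CPM in WSB control maturation cultures. The log2 differences were -2.31 ± 0.47 (adjusted p = 2.08e-05) and -2.87 ± 0.48 (adjusted p = 5.84e-07), with no overlap of libraries. Irx5 was lower by 1.76 ± 0.38 on the log2 scale in B6 and by 2.43 ± 0.39 in WSB, with adjusted p of 5.61e-05 and 2.44e-07. At the axon stage Irx3 was lower than in NPC by 1.75 in B6 (adjusted p = 0.000276) and by 2.35 in WSB (adjusted p = 3.77e-05). Irx5 was lower by 1.06 in B6 (adjusted p = 0.0224) and by 1.69 in WSB (adjusted p = 0.00178). The B6 call for Irx5 did not hold without NPC B6 control replicate 4 (-0.90, adjusted p = 0.0808) or axon B6 control uncut replicate 2 (-0.91, adjusted p = 0.074).

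Pax6, graded across the intermediate tube and also needed in many later neurons, fell at maturation and less clearly at the axon stage. Control NPC held 33.5 to 102.5 CPM in B6 (median 46.0) and 70.6 to 141.5 CPM in WSB (median 74.6). Control maturation cultures held 7.42, 8.94, 14.1 and 15.9 CPM in B6 and 22.1, 20.3, 15.1 and 13.4 CPM in WSB, all below the NPC libraries of their strain. The log2 difference was -2.23 ± 0.51 (adjusted p = 0.000133) in B6 and -2.36 ± 0.51 (adjusted p = 6.24e-05) in WSB. Against axon cultures the differences of -1.26 ± 0.66 and -1.10 ± 0.72 did not pass the threshold.

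Dbx2, a relative of Dbx1 with a broader domain, did not fall with Dbx1 in either strain. Control NPC held 0.427 to 8.13 CPM in B6 (median 2.45) and 3.66 to 12.9 CPM in WSB (median 5.05). Uncut control axon cultures held 1.90, 3.62, 6.26 and 6.49 CPM in B6 and 3.48, 28.7, 31.8 and 46.5 CPM in WSB, with the low WSB value in culture set 1. In WSB axon cultures the log2 difference from NPC was 2.28 ± 0.87 (adjusted p = 0.0294), and 2.76 ± 0.73 without culture set 1 (adjusted p = 0.00266). That call missed the threshold without any 1 of 5 of the 6 libraries (NPC WSB control replicates 4, 5 and 6 and axon WSB control uncut replicates 2 and 3), with adjusted p of 0.0576 to 0.1. In B6 the difference of 1.33 ± 0.82 was not called.

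Sox3 fell at both later stages. Control NPC held 38.7 to 118.4 CPM in B6 and 43.9 to 89.1 CPM in WSB. Control maturation cultures held 0.621, 0.685, 1.34 and 1.07 CPM in B6 and 1.99, 1.59, 0.887 and 1.80 CPM in WSB, while the mean at the axon stage was 3.95 to 6.95 CPM over its 8 groups. Maturation differed from NPC by -6.02 ± 0.63 in B6 (adjusted p = 1.73e-12) and by -5.29 ± 0.60 in WSB (adjusted p = 2.37e-11). Uncut axon cultures lay between, higher than maturation by 2.80 ± 0.57 in B6 (adjusted p = 8.97e-05) and 1.92 ± 0.55 in WSB (adjusted p = 0.00425).

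Of the 10 factors, 7 were called between axon and NPC in B6 and 7 in WSB, against 57% and 51.1% of all genes tested. Between maturation and NPC 7 were called in B6 and 8 in WSB, against 66% and 66.8% of all genes. Between axon and maturation 1 was called in B6 and 2 in WSB, against 38.3% and 38.9% of genes. Sox3 was called in both, and the second in WSB was Dbx2 (1.91 ± 0.71, adjusted p = 0.0275), which missed the threshold without axon WSB control uncut replicate 4 or maturation WSB control replicate 1, 3 or 4 (1.51 to 1.92, adjusted p of 0.0514 to 0.105). For maturation against NPC these shares were near those of genes at large. Of 21 other progenitor-domain factors, 17 fell and none rose from NPC to maturation in B6, and 15 fell and none rose in WSB. Maturation libraries came from another library block than NPC libraries and B6 axon libraries, so stage and block cannot be told apart in those comparisons. In WSB only axon culture set 4 shared the block of the maturation libraries, under another batch number. Because RNA came from whole cultures, fewer cells of a type and less RNA of a gene per cell cannot be told apart in any result here.

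At the NPC stage ID-8 lowered most of the factors in B6. In edgeR's test 8 of the 10 were called lower and none higher, against 22% of all genes called lower and 40.4% in either direction. The median log2 difference of the 10 was -1.40, and that of all genes tested was -0.04. Nkx6-2 (-0.88 ± 0.49, adjusted p = 0.156) and Irx5 (-0.73 ± 0.32, adjusted p = 0.0785) were the exceptions. With culture names as a replicate block Irx5 passed (-1.0 ± 0.24, adjusted p = 0.00371), and without B6 control replicate 1 Nkx6-2 did (-1.15 ± 0.41, adjusted p = 0.0334).

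The ventral factors Nkx6-1 and Nkx2-2 fell in ID-8 cultures of B6. For Nkx6-1, control libraries held 6.79 to 51.5 CPM (median 34.8) and ID-8 libraries held 0.516 to 2.13 CPM (median 1.08), with no overlap. The log2 difference was -4.81 ± 0.49 (adjusted p = 8.55e-07). Nkx2-2 held 0.0225 to 3.11 CPM in controls (median 1.28) and 0.0616 to 0.236 CPM with ID-8 (median 0.158). It was lower by 3.43 ± 0.82 on the log2 scale (adjusted p = 0.00254), and its groups overlapped through 1 low control library, replicate 1. Without that library the log2 difference was -3.74 ± 0.70 (adjusted p = 0.00049).

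The intermediate factors Dbx1, Pax6, Dbx2 and Irx3 fell as well. Dbx1 held 6.75 to 139.5 CPM in B6 controls (median 79.2) and 3.29 to 20.9 CPM with ID-8 (median 9.62), a log2 difference of -2.78 ± 0.57 (adjusted p = 0.000723). The low control value of 6.75 CPM was again replicate 1, and without that library the difference was -3.01 ± 0.48 (adjusted p = 0.000123). Pax6 held 33.5 to 102.5 CPM in controls (median 46.0) and 8.84 to 26.8 CPM with ID-8 (median 15.7), without overlap (-1.57 ± 0.25, adjusted p = 6.85e-05). Dbx2 fell by 1.83 ± 0.57 (adjusted p = 0.0149) and Irx3 by 1.23 ± 0.20 (adjusted p = 0.000101). Irx3 medians were 64.2 CPM in controls and 29.0 CPM with ID-8.

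The dorsal factor Pax7 had medians of 32.5 CPM in B6 controls and 15.4 CPM with ID-8 and fell by 1.11 ± 0.35 (adjusted p = 0.016). Sox3 had medians of 44.3 and 29.3 CPM and fell by 0.93 ± 0.26 (adjusted p = 0.00774). The lower levels in B6 thus covered ventral, intermediate and dorsal factors. Within the first library block 4 of the 10 factors were called: Nkx2-2 (-2.86, adjusted p = 0.13), Pax7 (-0.80, 0.25), Dbx2 (-2.33, 0.0683) and Sox3 (-0.61, 0.341) were not. Within the second block Dbx1 (-2.49, adjusted p = 0.0504) and Dbx2 (-1.35, 0.256) were not. All of these kept the direction of the pooled fit. The share of all genes called within single blocks is not given here.

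In WSB the same treatment left most factors without a call. Nkx6-1 alone of the 10 was called, against 4.86% of all genes called lower and 9.57% in either direction. Its libraries held 18.6 to 84.1 CPM in controls (median 50.9) and 5.97 to 27.1 CPM with ID-8 (median 24.2). The log2 difference was -1.33 ± 0.41 (adjusted p = 0.0414), and without WSB ID-8 replicate 4 it was -1.17 ± 0.41 and no longer passed (adjusted p = 0.0932). Within single library blocks it was -1.37 (adjusted p = 0.252) and -1.24 (adjusted p = 0.248). Nkx2-2 (-2.09 ± 0.72, adjusted p = 0.0681) and Nkx6-2 (-1.12 ± 0.48, adjusted p = 0.154) had negative values that did not pass.

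The other factors in WSB had values on both sides of 0. Irx3 medians were 77.7 CPM in controls and 110.6 CPM with ID-8 (0.46 ± 0.20, adjusted p = 0.151). Pax7 medians were 46.6 and 70.6 CPM (0.61 ± 0.35, adjusted p = 0.298). Dbx1 had medians of 81.5 and 94.9 CPM, but its ID-8 libraries ran from 12.1 to 185.0 CPM. Sox3 medians were 48.0 and 92.3 CPM (0.71 ± 0.26, adjusted p = 0.0881), and with replicate numbers of the first block as a replicate block Sox3 was called higher (0.75 ± 0.21, adjusted p = 0.029). With culture names as the block, Irx3 was called higher as well (0.49 ± 0.16, adjusted p = 0.0492). The median of the 10 differences in WSB was -0.03.

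**Figure D2:**
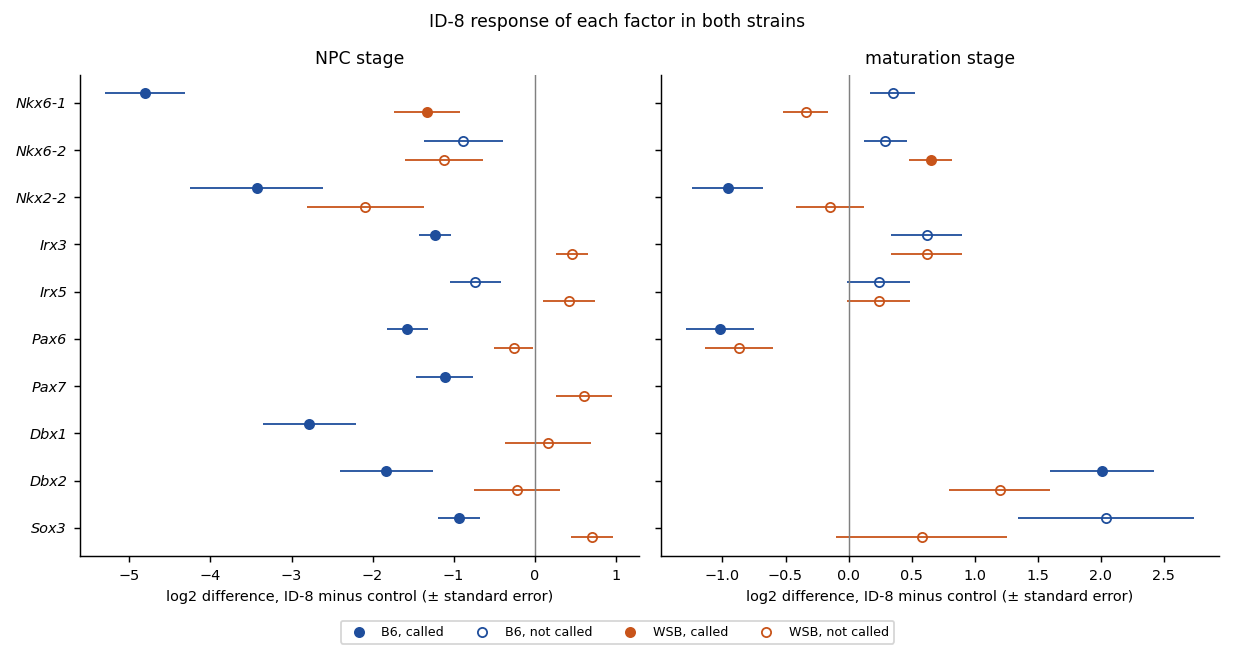
Log2 difference of ID-8 from control (± standard error) for each factor in B6 and WSB, at the NPC and maturation stages, from edgeR fits. At the NPC stage all 10 B6 values are below 0, while WSB values lie on both sides of 0.

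The difference between the strains' ID-8 responses was tested directly and was called for 5 of the 10 factors, against 3.19% of all genes. In each of the 5 the WSB response was the higher one, as it was for 1.44% of all genes. The difference was 3.49 ± 0.61 for Nkx6-1 (adjusted p = 0.00534), 2.94 ± 0.76 for Dbx1 (adjusted p = 0.0373) and 1.69 ± 0.28 for Irx3 (adjusted p = 0.00491). It was 1.64 ± 0.37 for Sox3 (adjusted p = 0.0181) and 1.31 ± 0.34 for Pax6 (adjusted p = 0.0375). Pax7 missed the threshold (1.71 ± 0.49, adjusted p = 0.0561) and passed with replicate numbers as a block (1.96 ± 0.42, adjusted p = 0.02), and Irx5 passed with culture names as the block (1.43 ± 0.33, adjusted p = 0.0129). Nkx6-2 had a difference of -0.24 ± 0.68, with negative uncalled values in both strains.

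Without B6 ID-8 replicate 6 the differences of Pax6 (1.22, adjusted p = 0.0581) and Dbx1 (2.77, adjusted p = 0.0546) missed the threshold, which left 3 calls. Inside single library blocks, with 3 libraries a group, no factor was called, and the values kept their sign. The Nkx6-1 difference was 2.42 ± 0.71 in the first block and 4.43 ± 0.69 in the second, those of Irx3 were 1.72 and 1.71, and those of Dbx1 were 3.22 and 2.70.

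These comparisons share libraries: the B6 ID-8 group enters both the B6 response and the strain comparison with ID-8. In control NPC cultures 1 of the 10 factors differed between strains, against 45% of all genes. This was Pax6, higher in WSB by 0.76 ± 0.24 (adjusted p = 0.0138), with single-block values of 0.67 (adjusted p = 0.197) and 0.81 (adjusted p = 0.0729). Without B6 control replicate 1 the Pax6 difference was 0.63 ± 0.23 (adjusted p = 0.0364). The log2 values of the other 9 lay between 0.07 (Sox3) and 1.24 (Dbx2), all on the WSB side and none called. With replicate numbers of the first block as a replicate block Irx5 (0.77 ± 0.31, adjusted p = 0.0457) and Dbx2 (1.37 ± 0.52, adjusted p = 0.0375) were called too, and DESeq2 called the same pair. With ID-8, 9 of the 10 were higher in WSB, against 32.7% of genes called higher and 66.7% in either direction. Nkx6-1 differed by 3.99 ± 0.47 (adjusted p = 3.81e-07), Dbx1 by 3.28 ± 0.58 (adjusted p = 4.66e-05) and Irx3 by 2.14 ± 0.21 (adjusted p = 2.58e-08), while Nkx6-2 (0.65 ± 0.48, adjusted p = 0.238) was the exception. Libraries of the strains did not overlap for Nkx6-1, Irx3, Irx5, Pax6 and Pax7, and the share of all genes without overlap is not given here. Nkx2-2 was not called within either library block alone (2.67, adjusted p = 0.0704, and 2.10, adjusted p = 0.12), and Dbx2 was not in the second (2.17, adjusted p = 0.0506). In the same comparison all 8 neuron markers were higher in WSB (2201 to 3830 CPM in sum, against 185.3 to 1666 CPM in B6) and 7 of 8 endoderm markers were lower, and their part in the strain differences was not tested.

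**Figure D3:**
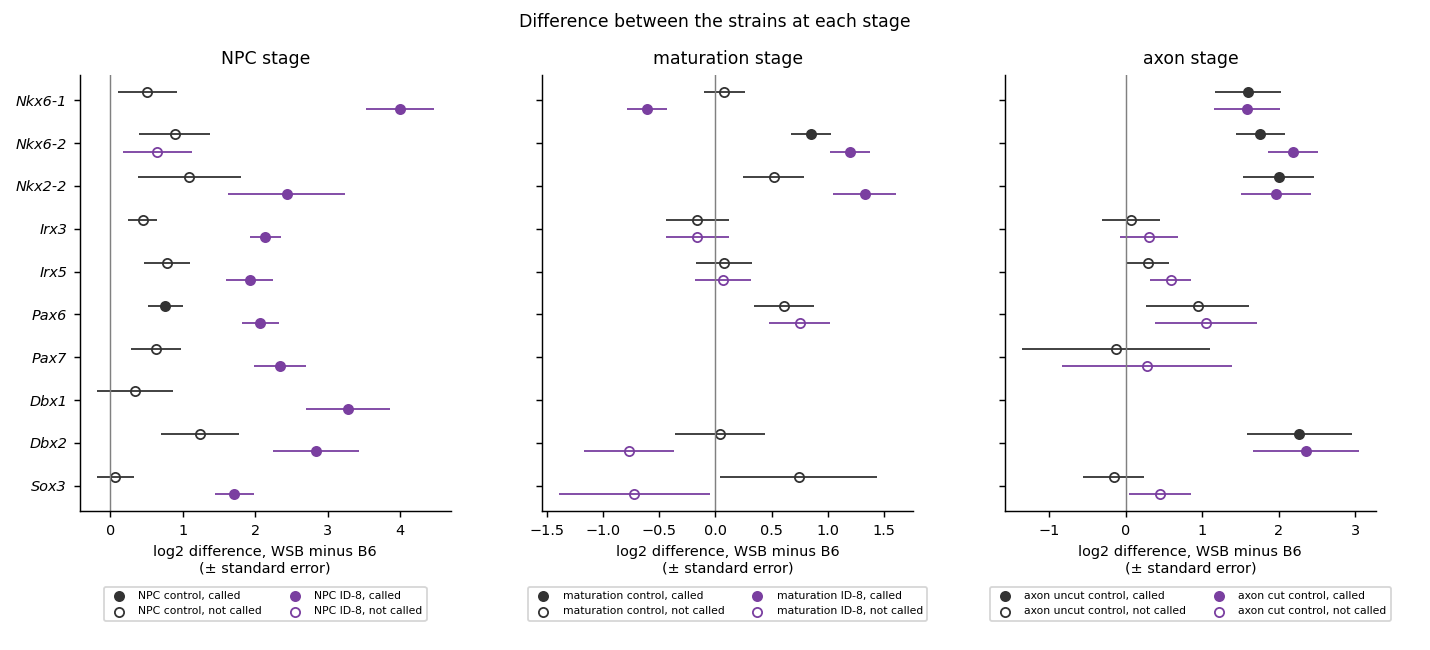
Log2 difference of WSB from B6 (± standard error) for each factor in 2 conditions of each stage. With ID-8 at the NPC stage 9 of 10 factors were called higher in WSB, and at the axon stage the called factors are Nkx6-1, Nkx6-2, Nkx2-2 and Dbx2.

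Shh, the gene of the ventral signal Sonic hedgehog, fell with ID-8 in B6 NPC. It was at 93.5 CPM in controls and 2.84 CPM with ID-8 (-4.99 ± 0.61, adjusted p = 5.86e-06). The response differed between strains by 3.72 ± 0.76 (adjusted p = 0.0115). Of 16 patterning signals and readouts 3 rose and 2 fell in B6, a smaller share than the 40.4% of all genes called. Cyp26a1, an enzyme that degrades retinoic acid, rose by 4.60 ± 0.63 and Bmp2, a gene of the dorsal class of signals, rose by 3.23 ± 0.39. In WSB 3 of 16 rose and 3 fell, against 9.57% of all genes called, among them Cyp26a1 (3.02 ± 0.63) and the hedgehog target Hhip (-1.41 ± 0.30).

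Of 21 other progenitor-domain factors 4 rose and 2 fell in B6, also a smaller share than the 40.4% of all genes called. Olig2, the factor of motor neuron progenitors, went from 4.04 to 19.5 CPM (2.36 ± 0.62, adjusted p = 0.00496). In WSB Olig2 went the other way, from 3.31 to 0.703 CPM (-2.07 ± 0.65, adjusted p = 0.0469), and the responses differed by -4.44 ± 0.90 (adjusted p = 0.0109). Of 24 factors of the neurons that the domains make, 2 rose and 11 fell in B6. In WSB none rose and 6 fell, where 9.57% of all genes were called. None of the 4 other Iroquois genes was called in either strain. Of 10 SoxB and progenitor genes 1 rose and 4 fell in B6, among them the Notch target Hes5 (45.0 to 8.83 CPM).

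Markers of other cells moved in the same B6 comparison, in which 40.4% of all genes were called in either direction. Of 8 endoderm markers 7 rose and 1 fell, and their summed level went from 41.48 to 80.94 CPM in controls to 154.6 to 1171 CPM with ID-8. All 8 mesenchyme markers rose (110 to 285 CPM against 226.8 to 1702 CPM), and of 8 pluripotent markers 5 rose and 1 fell. Of 8 neuron markers 5 fell (1146 to 3045 CPM against 185.3 to 1666 CPM). In WSB 1 endoderm marker rose and 1 fell, 7 of 8 pluripotent markers rose, and no neuron marker was called, against 9.57% of all genes called. The part of these cells in the changes of the factors was not tested.

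At maturation ID-8 changed 3 factors in B6 and 1 in WSB. Pax7 and Dbx1 did not pass the filter on low counts, so 8 of the 10 were tested. In B6, 3 of the 8 were called, against 17.1% of all genes. Dbx2 rose, from 2.05, 3.75, 11.3 and 13.0 CPM in controls to 22.3, 27.7, 33.3 and 34.5 CPM with ID-8 (2.01 ± 0.41, adjusted p = 0.00356). Every ID-8 library was above every control library, although the controls themselves fell into 2 pairs, which carry different kinds of culture name in the deposited table. Summed mesenchyme markers were at 1846 to 2823 CPM in these controls and 512.3 to 956.4 CPM with ID-8 (2 of 8 called lower). Summed oligodendrocyte-lineage markers were at 66.53 to 217.7 CPM and 266.3 to 427.6 CPM, and the part of either in the B6 changes was not tested.

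Pax6 went the other way in B6. It fell from 7.42, 8.94, 14.1 and 15.9 CPM to 4.53, 3.83, 6.71 and 7.19 CPM (-1.02 ± 0.27, adjusted p = 0.0182), again without overlap. The call missed the threshold without B6 ID-8 replicate 2 (-0.88, adjusted p = 0.0583), B6 control replicate 3 (-0.90, 0.0532) or B6 control replicate 4 (-0.81, 0.0661). Nkx2-2 fell from 1.58, 2.68, 1.94 and 2.38 CPM to 1.01, 0.791, 1.51 and 0.928 CPM (-0.96 ± 0.28, adjusted p = 0.0274). It missed the threshold without any 1 of 5 libraries (B6 control replicates 2 and 4 and B6 ID-8 replicates 1, 2 and 4), at -0.85 to -0.94 and adjusted p of 0.0554 to 0.0807.

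In WSB 1 of the 8 was called, against 5.89% of genes. Nkx6-2 rose from 68.5, 59.8, 48.5 and 61.4 CPM to 92.9, 86.2, 67.7 and 113.3 CPM (0.65 ± 0.17, adjusted p = 0.0404). The highest control lay just above the lowest ID-8 library. Summed astrocyte markers were at 3507 to 4516 CPM in these controls and 4542 to 6238 CPM with ID-8 (1 of 6 called higher), and their part was not tested. Leaving out any 1 of 7 of the 8 libraries, all but WSB ID-8 replicate 3, ended the call, with values of 0.52 to 0.72 and adjusted p of 0.0577 to 0.133. Dbx2 (1.20 ± 0.40, adjusted p = 0.0977), Pax6 (-0.87 ± 0.27, adjusted p = 0.0733) and Irx3 (0.62 ± 0.28, adjusted p = 0.222) were not called in WSB. Their groups did not overlap, and the share of all genes without overlap is not given here. The WSB libraries held 7.38, 10.2, 5.64 and 7.74 CPM of Dbx2 in controls and 15.3, 16.9, 17.3 and 19.1 CPM with ID-8.

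No factor had a called difference between the strains' responses at maturation, against 0.46% of all genes in edgeR's test. At an unadjusted p under 0.05 there was 1 factor, Nkx6-1 (-0.69 ± 0.26, adjusted p = 0.394 in edgeR), and DESeq2 also called 0. Dbx2 and Pax6 had the same direction in both strains. Nkx6-1 values ran from 19.9 to 38.4 CPM over the 8 B6 libraries and from 16.1 to 27.7 CPM over the 8 WSB libraries.

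Between strains at maturation Nkx6-2 was higher in WSB under both conditions. The difference was 0.85 ± 0.18 in controls (adjusted p = 0.00398), the single call among the 8 against 14.8% of genes. With ID-8 it was 1.20 ± 0.18 (adjusted p = 0.000213), 1 of 3 calls against 17.3% of genes. The others with ID-8 were Nkx2-2, higher in WSB by 1.33 ± 0.28 (adjusted p = 0.00373), and Nkx6-1, lower by 0.61 ± 0.18 on the log2 scale (adjusted p = 0.0319). The Nkx6-1 call missed the threshold without any 1 of 5 libraries (WSB ID-8 replicates 1, 2 and 3 and B6 ID-8 replicates 3 and 4), at -0.44 to -0.64 and adjusted p of 0.0559 to 0.115. Gfap and S100b, from a list of 6 astrocyte markers, were also higher in WSB controls at this stage. Gfap was at 904.6 CPM in B6 and 2762 CPM in WSB. The summed level of the list overlapped between strains, at 691.8 to 4036 CPM in B6 controls and 3507 to 4516 CPM in WSB controls. With ID-8, 5 of 8 mesenchyme markers were higher in WSB. The part of these cells in the strain differences was not tested.

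Olig2 rose with ID-8 at maturation in both strains, from 1.74 to 32.2 CPM in B6 (4.25 ± 0.35, adjusted p = 3.52e-06) and from 2.10 to 14.6 CPM in WSB (2.86 ± 0.33, adjusted p = 0.000297). Of 13 other progenitor-domain factors tested, 3 rose and 1 fell in B6 and 1 rose and 1 fell in WSB. Of all genes, 17.1% were called in B6 and 5.89% in WSB. Hedgehog readout Gli1, from the list of 16 patterning signals and readouts, fell in both strains. It went from 3.56 to 0.397 CPM in B6 (-3.11 ± 0.59) and from 8.41 to 1.59 CPM in WSB (-2.35 ± 0.55). Counts for the rest of that list are not given here. Of 7 oligodendrocyte-lineage markers tested 3 rose in B6. In WSB 1 rose, Olig1, from 20.2 to 65.5 CPM.

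At the axon stage the ventral factors and Dbx2 were higher in WSB. In uncut controls 4 of 9 factors tested were called higher, against 5.68% of all genes called higher and 13.2% in either direction, and Dbx1 did not pass the filter. At this stage the library block as covariate set WSB culture set 4 apart from all other libraries. The strain differences at the axon stage thus rest mainly on WSB sets 1 to 3. The Nkx6-2 libraries given above did not overlap between strains (1.76 ± 0.32, adjusted p = 0.000888). Nkx2-2 held 7.07, 4.81, 5.43 and 14.6 CPM in WSB and 1.99, 0.887, 1.84 and 2.10 CPM in B6 (2.00 ± 0.46, adjusted p = 0.00604). Nkx6-1 held 71.1, 39.2, 30.5 and 20.7 CPM in WSB and 19.9, 11.0, 18.1 and 16.5 CPM in B6 (1.60 ± 0.43, adjusted p = 0.0151). Every WSB library was above every B6 library for both, and the share of all genes without overlap is not given here.

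Dbx2 differed by 2.27 ± 0.69 (adjusted p = 0.0316), with WSB replicate 1 inside the B6 range. Without any 1 of 5 libraries (B6 replicates 1, 2 and 4 and WSB replicates 2 and 3) its adjusted p was 0.0501 to 0.0987, at differences of 2.00 to 2.50. Nkx6-1 missed the threshold without WSB replicate 1 (1.29 ± 0.44, adjusted p = 0.0613), and without the library block as covariate in uncut (1.40, adjusted p = 0.0617) and cut controls (1.38, adjusted p = 0.0596). In cut controls the same 4 factors were called, against 7.46% of genes called higher and 16.2% in either direction. The differences were 1.59 ± 0.43 for Nkx6-1, 2.19 ± 0.33 for Nkx6-2, 1.97 ± 0.46 for Nkx2-2 and 2.36 ± 0.69 for Dbx2. Cut and uncut controls came from the same culture sets, so the cut result is no independent repeat. The fit took libraries of the same set as independent, which may make the p-values of these strain differences too small. Without WSB replicate 1 the cut value of Nkx6-1 was 1.25 ± 0.44 (adjusted p = 0.0524). Dbx2 in cut controls missed the threshold without B6 replicate 1 (2.15, adjusted p = 0.0587), WSB replicate 2 (2.17, 0.0521) or WSB replicate 3 (1.95, 0.0909).

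The 4 libraries of WSB culture set 1 had their own profile. Nkx6-1 was at 71.1 to 87.3 CPM in them, Pax6 at 5.26 to 7.48 CPM and Dbx2 at 3.48 to 6.18 CPM. Uncut WSB controls of the other 3 sets held 51.8, 41.8 and 37.1 CPM of Pax6. The summed mesenchyme markers of the uncut WSB controls ran from 144.2 CPM, in set 1, to 2214 CPM, all below the 2421 to 7090 CPM of uncut B6 controls (1 of 8 called lower in WSB). Without set 1 the strain difference in uncut controls was 1.09 ± 0.30 for Nkx6-1 (adjusted p = 0.0156) and 2.80 ± 0.45 for Dbx2 (adjusted p = 0.000373), and Pax6 was called as well (1.46 ± 0.36, adjusted p = 0.00928). In cut controls Pax6 (1.58, adjusted p = 0.0039), Irx5 (0.88, 0.00871) and Irx3 (0.67, 0.0211) were added without set 1, which made 7 calls of 9. The share of all genes called without set 1 is not given here, and these WSB values rest mainly on sets 2 and 3. Astrocyte markers summed to 1500 to 12480 CPM in uncut WSB controls and 1689 to 2596 CPM in B6, and 2 of 6 were called higher in WSB. The part of astrocyte and mesenchyme markers in the strain differences was not tested.

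**Figure D4:**
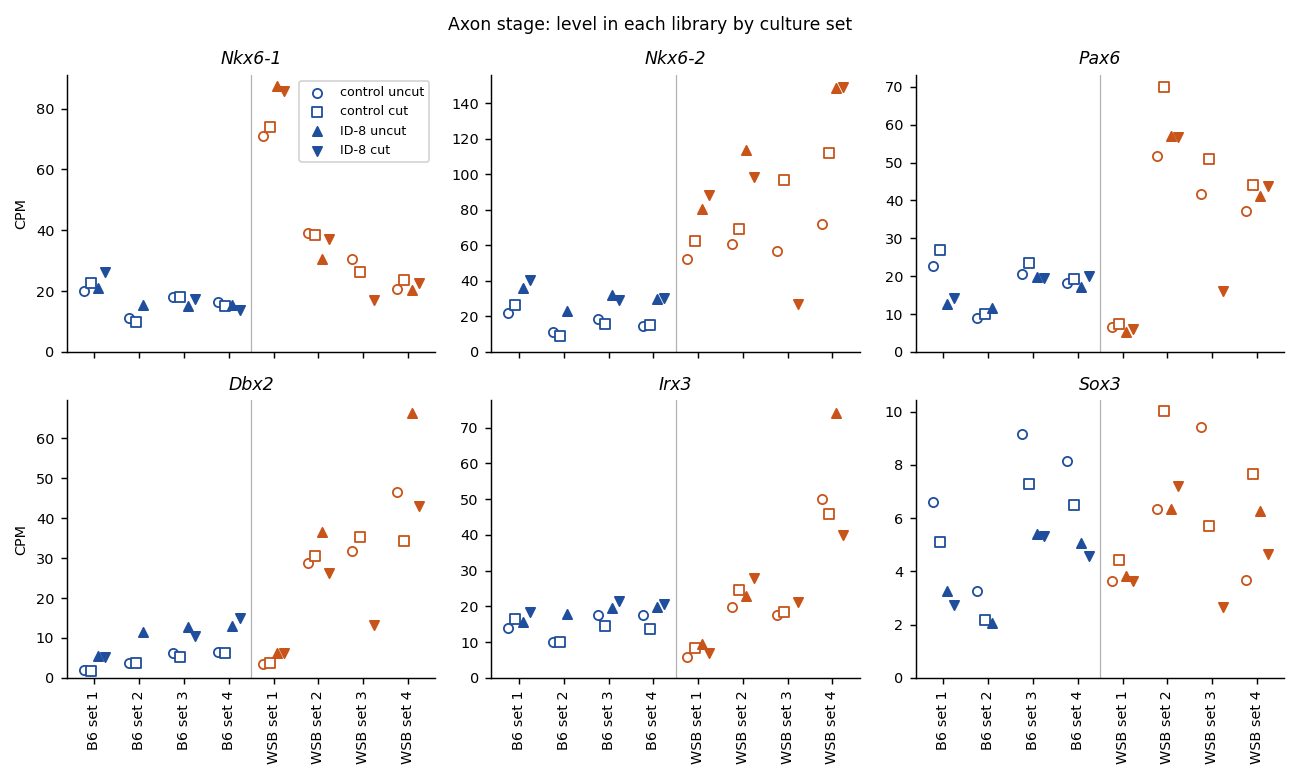
CPM of selected factors at the axon stage by culture set, with open circles and squares for uncut and cut controls and filled triangles up and down for uncut and cut ID-8 cultures. In WSB, set 1 has the highest Nkx6-1 and the lowest Dbx2 and Pax6, and in B6 Nkx6-2 and Dbx2 are higher with ID-8 in every set.

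Of 18 other progenitor-domain factors tested in uncut controls 4 were higher and 1 lower in WSB, against 13.2% of all genes called. Olig2 was at 28.6 CPM in WSB and 5.37 CPM in B6 (2.46 ± 0.55, adjusted p = 0.00468). Lhx3, a factor of motor neurons and a class of ventral interneurons, was at 5.43 CPM in WSB and 0.772 CPM in B6 (3.15 ± 0.63). Lbx1, a factor of dorsal interneurons, was lower in WSB (3.82 and 18.1 CPM, -2.44 ± 0.52). The hedgehog target Hhip was also lower in WSB (-1.60 ± 0.21, adjusted p = 3.52e-05), the single call among 14 signals and readouts.

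Severing axons left no factor with a call. In the 4 comparisons of cut with uncut cultures edgeR called 0 genes of 18106, or 0%, and DESeq2 called 17 to 34 genes and none of the factors. At an unadjusted p under 0.05 there were 72 to 1183 genes and 0 of the 9 factors. Nkx6-2 differed by -0.01 ± 0.31 in B6 controls, 0.42 ± 0.31 in WSB controls, 0.13 ± 0.33 in B6 with ID-8 and -0.36 ± 0.33 in WSB with ID-8.

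ID-8 at the axon stage brought no call for any factor in the fit without culture sets, although the libraries of Nkx6-2 separated in 3 of 4 comparisons. Over the 4 comparisons edgeR called 0 genes (0%), with 675 to 1380 genes at an unadjusted p under 0.05, and DESeq2 called 33 to 122 genes and none of the factors. Uncut B6 libraries held 22.0, 11.2, 18.8 and 14.6 CPM of Nkx6-2 in controls and 35.8, 22.9, 32.0 and 29.7 CPM with ID-8 (0.84 ± 0.31, unadjusted p = 0.0121). Cut B6 libraries held 26.5, 9.18, 15.7 and 15.4 CPM in controls and 40.6, 29.1 and 30.1 CPM with ID-8 (0.99 ± 0.33, unadjusted p = 0.0065). Uncut WSB libraries with ID-8 held 80.7, 113.8 and 148.6 CPM (0.87 ± 0.33, unadjusted p = 0.0145). In these 3 comparisons the groups did not overlap.

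Cut WSB cultures did not show this. They held 62.5, 69.0, 96.5 and 112.0 CPM of Nkx6-2 in controls and 88.2, 98.3, 27.2 and 149.1 CPM with ID-8 (0.09 ± 0.31), where the low value was replicate 3. That library also had the highest summed mesenchyme level of its stage, 7417 CPM, and its part in the value was not tested. Within culture sets Nkx6-2 was higher with ID-8 in 4 of 4 uncut and 3 of 3 cut B6 sets, and in 3 of 3 uncut and 3 of 4 cut WSB sets. With sets as a replicate block and that library left out, Nkx6-2 was called in uncut WSB (0.95 ± 0.12, adjusted p = 0.000313) and reached 0.46 (adjusted p = 0.0627) in cut WSB. In B6 the blocked values were 0.87 ± 0.26 (adjusted p = 0.106) and 0.89 ± 0.28 (adjusted p = 0.132).

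Dbx2 was called with ID-8 only where culture sets entered the fit. Uncut B6 libraries held 1.90, 3.62, 6.26 and 6.49 CPM in controls and 5.47, 11.5, 12.7 and 12.9 CPM with ID-8, and cut B6 libraries held 1.66, 3.69, 5.11 and 6.28 CPM in controls and 5.25, 10.6 and 15.1 CPM with ID-8. The groups overlapped through the low libraries of set 1 in each. Without a set block the differences were 1.21 ± 0.66 and 1.29 ± 0.70, and with it they were called, at 1.28 ± 0.24 (adjusted p = 0.0178) uncut and 1.33 ± 0.27 (adjusted p = 0.016) cut. In WSB with sets as a block and ID-8 cut replicate 3 left out, uncut Dbx2 was called as well (0.62 ± 0.17, adjusted p = 0.0264). Dbx2 was higher with ID-8 in 4 of 4 and 3 of 3 B6 sets, and in 3 of 3 uncut and 2 of 4 cut WSB sets. Sox3 had lower values with ID-8 in 4 of 4 uncut and 3 of 3 cut B6 sets, and its blocked difference of -0.79 ± 0.24 in uncut B6 was not called (adjusted p = 0.119).

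Across the 16 group means, on the scale log2(CPM + 0.5), the factors fell into 2 loose sets. Pax7 and Dbx1 were most alike (Pearson's r = 0.994), followed by Irx3 and Irx5 (0.971) and Pax7 and Sox3 (0.935). Nkx6-2 was most like Dbx2 (0.862) and ran against Pax7 (-0.871), Dbx1 (-0.859) and Sox3 (-0.826). These values describe groups that share strains, stages and library blocks, and they carry no test.

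**Figure D5:**
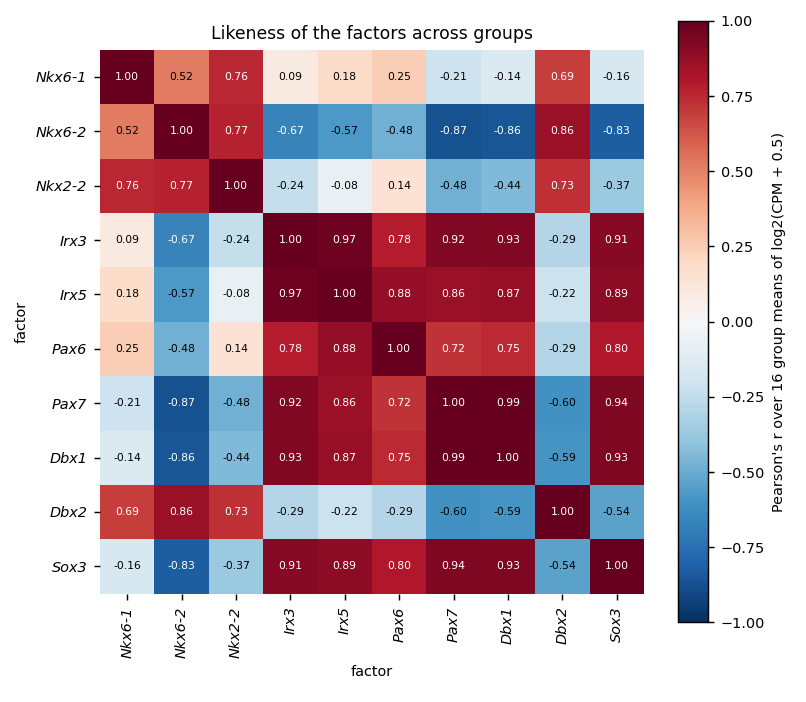
Pearson's r between factors over the 16 group means of log2(CPM + 0.5). Pax7, Dbx1, Sox3, Irx3 and Irx5 form a block of high values, and Nkx6-2 is negative against Pax7, Dbx1 and Sox3.

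Among 14853 genes with a symbol and a mean of at least 1 CPM in a group, the closest to Pax7 were the dorsal factor Prdm13 (0.995), the proneural factor Neurog1 (0.994) and Dbx1 (0.994). The closest to Irx3 were Kctd15 (0.972), Irx5 (0.971) and Ccnj (0.959), and those of Sox3 were Spsb4 (0.986), Dll1 (0.985), a Notch ligand, and Nrarp (0.984), a Notch target. Among the 3 closest to Pax6 were the neural tube factor Foxb1 (0.989) and Lrch2 (0.965). Nkx6-2 was closest to Slc25a42 (0.984), Gpm6b (0.984), which encodes a myelin-related membrane protein, and Ppp1r1b (0.983). Among the 3 closest to Nkx2-2 were Enpp6 (0.924), an enzyme of young oligodendrocytes, and Mboat2 (0.907). Dbx2 was closest to Cdh20 (0.974), Blcap (0.951) and Pdhx (0.946). The best match of Nkx6-1 was weaker, Ppp1r9b at 0.892.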

How the data were processed

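RNA-seq libraries from polyadenylated RNA were made with a stranded kit, per the labels' protocols. The authors deposited 1 table of expected counts per gene, with no scaling between samples and 9.318% of values not whole. Bowtie2, RSEM, featureCounts and limma are named beside GRCm38 in the submitters' processing notes, and versions, strand settings and the annotation release are not given in the sources used here. Runs of the same library were summed (6 libraries had 2 runs), which made 70 libraries of 76 sequenced samples, and sums were rounded to whole numbers. Symbols came from the GENCODE annotation of GRCm38 and matched 37607 of 38924 genes. Groups came from the labels, and library blocks were read from the ranges of library numbers in the titles.

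Each stage was fitted over all its groups with edgeR 4.0.16 in R 4.3.3 (TMM factors, filterByExpr, robust quasi-likelihood test, library block as covariate where a stage had more than 1), with Benjamini-Hochberg adjustment over all genes tested. Standard errors were taken from the log2 difference and its F value. Stages were compared between control groups in separate fits that also held the ID-8 and cut libraries. Maturation was compared in a fit of all 70 libraries without library block. For axon against NPC only NPC and axon libraries of the second library block entered. DESeq2 1.42.0 was an alternative, and the closing section gives the effect of this and other alternatives. Scripts were tested on simulated data. Library totals of 20.37 to 131.49, in units of 1e6 counts, set the precision of low levels.

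The 10 members and all gene lists were chosen with earlier results of these data known. Besides the members, the rule names up to 4 called genes with the smallest p from each pathway list, the 3 genes whose group means are most like each member's, and marker genes whose level stands beside a result. Some genes that fall under the rule are not reported here. Gfap and Olig1 are named as markers.

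Pairing of libraries was checked from the correlation of their deviations from group means. Culture sets were read from runs of consecutive numbers in the titles, and each of the 8 sets carried 1 culture name in the deposited table. They paired the axon libraries of B6 (21 of 21 pairs over 0.1, lowest 0.647) and, without WSB ID-8 cut replicate 3, of WSB (19 of 19, lowest 0.606; with that library 19 of 21, lowest -0.06). Replicate numbers paired control and ID-8 libraries in the first NPC library block (3 of 3 pairs over 0.1 per strain, with lowest values of 0.105 in B6 and 0.213 in WSB). Culture names in the deposited table did so in the second block in B6 (3 of 3, lowest 0.132) but not for every pair in WSB (2 of 3, lowest 0.028). Maturation libraries were split by title letters into 2 culture experiments of 8; all 8 of the second and 0 of the first name an experiment in the deposited table, and the split did not pair every library (40 of 48 pairs, lowest -0.183).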

Additional observations from a re-analysis of the deposited data

Results flagged for a closer look

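Libraries lay far from the others of their group in 8 sets of 1 factor in 1 group, where chance gives about 1 in 20 of the sets tested, or 5.8. Replicate 3 of the NPC controls was the highest in both strains for Pax6, at 102.5 CPM in B6 (next 56.23) and 141.5 CPM in WSB (next 78.92), and for Dbx2, at 8.129 CPM in B6 (next 3.224) and 12.88 CPM in WSB (next 6.845). In WSB ID-8 NPC replicate 3 was the highest for Pax7, at 111.1 CPM (next 77.9), and replicate 1 was the highest for Nkx6-2, at 7.194 CPM (next 2.186). At the axon stage replicate 1 of uncut B6 ID-8 had 21.0 CPM of Nkx6-1 (next 15.48), and replicate 1 of cut WSB controls, of culture set 1, had 3.651 CPM of Dbx2 (next 30.55).

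The NPC response to ID-8 differed between the strains by an interaction test in edgeR for 5 factors. The log2 differences, WSB minus B6, were 3.49 for Nkx6-1, 2.94 for Dbx1, 1.69 for Irx3, 1.64 for Sox3 and 1.31 for Pax6.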

How the results depend on the processing

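Counts below are of called factors, with the value reported above first. DESeq2 called 8636 genes of all for strain in control NPC and 2398 for ID-8 in WSB NPC. It called 1775 for ID-8 in WSB at maturation and 7977 for axon against maturation in B6. For the difference of ID-8 responses at the NPC stage it called 1252. At maturation it called 3851 for ID-8 in B6 and 3824 for strain with ID-8. It called 13126 for maturation against NPC in B6 and 8020 for axon against maturation in WSB. For the other alternatives the share of all genes called is not given here. For strain in control NPC the count was 1, and it was 3 with DESeq2 and with the replicate block, and 0 without a library block and within either block alone. For ID-8 in B6 NPC it was 8, and 4 in the first library block. For ID-8 in WSB NPC it was 1, and 0 without a filter, without a library block, within either block alone and without WSB ID-8 replicate 4, 2 with DESeq2 and with the replicate block by numbers, and 3 with the replicate block by culture names. For the difference of these responses it was 5, and 3 without a filter, without a library block or without B6 ID-8 replicate 6. It was 0 within either block alone and 6 with DESeq2, which added Pax7. For ID-8 in WSB at maturation it was 1, and 0 without a filter and 3 with DESeq2 and with the culture experiment as replicate block, which adds Pax6 and Dbx2. That replicate block also called Irx3 for ID-8 in B6 (0.65, adjusted p = 0.0368) and Pax6 for strain with ID-8 (0.77, adjusted p = 0.0429) at maturation. For strain in cut axon controls it was 4, and 7 without WSB culture set 1. For ID-8 at the axon stage it was 0, and 1 in uncut and 1 in cut B6 with the set as replicate block, and 2 in uncut WSB with that replicate block and ID-8 cut replicate 3 left out. For axon against maturation in B6 it was 1, and 2 with RLE factors and with DESeq2 and 4 with library blocks as covariate. In WSB it was 2, and 3 with DESeq2, 5 without culture set 1 and 6 with library blocks as covariate. With DESeq2 the count was 4 rather than 3 for ID-8 in B6 and for strain with ID-8 at maturation. It was 8 rather than 7 for maturation against NPC in B6.

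Leaving out 1 library at a time gave counts of 1 to 4 for ID-8 in B6 at maturation, 0 to 1 for ID-8 in WSB at maturation, 2 to 4 for strain with ID-8 at maturation, 3 to 4 for strain at the axon stage, 1 to 2 for axon against maturation in B6 and 1 to 5 in WSB. For comparisons within the NPC stage only the libraries named as standing apart were left out. NPC control replicate 3, flagged above in both strains, was not left out. Adding library blocks as covariate to the fit of all 70 libraries reversed Nkx6-1 in maturation against NPC in WSB, to 0.45 from -1.12. The cause was not tested. Of 752 values of called factors under these alternatives, 665 kept direction and call, 86 kept the direction and lost the call, and this 1 reversed. The replicate block changed no other call than those given here and above. Without the library block Sox3 lost its call for ID-8 in B6 NPC (-0.81, adjusted p = 0.118), as did Pax6 (1.35, 0.129) and Sox3 (1.60, 0.14) for the difference of responses and Nkx6-1 for ID-8 in WSB NPC (-1.34, 0.0764). Culture names as a block, leaving out named NPC libraries or WSB culture set 1, and the WSB set block without ID-8 cut replicate 3 were chosen after seeing the data. Blocks of 3 libraries a group have little power, and levels near the floor of 3 counts limit Pax7 and Dbx1 after the NPC stage.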
